A study of Drosophila melanogaster with 2 samples.

Results

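The genes described here encode subunits of the mitochondrial respiratory chain and ATP synthase in Drosophila melanogaster, apart from Sdhaf3, which encodes an assembly factor. They were chosen by symbol alone: protein-coding genes on the major chromosome arms whose symbol begins with ND- (complex I), Sdh (complex II), UQCR- (complex III), COX and a digit (complex IV) or ATPsyn (complex V). This gave 88 of 13945 protein-coding genes, with 40, 8, 9, 16 and 15 members in complexes I to V. The data are peak lists from chromatin immunoprecipitation with sequencing (ChIP-seq), an assay that recovers the DNA a protein sits on. There was 1 group of 2 biological replicates: whole embryos of pooled sexes, 0 to 24 h old, from a transgenic line carrying charlatan (chn) with GFP at its C-terminal end, precipitated with an antibody to GFP. Both replicates came from this 1 line. No untagged line or other condition was analysed here, and which promoter drives the fusion is not stated in the labels. All tissues of the embryo were pooled, so a peak cannot be assigned to a cell type.

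The respiratory chain passes electrons from NADH and succinate to oxygen and pumps protons across the inner mitochondrial membrane. Complex I oxidises NADH, complex II oxidises succinate, complex III hands electrons to cytochrome c, complex IV reduces oxygen, and complex V is the ATP synthase that the proton gradient drives. A minority of subunits is made from mitochondrial DNA, and the genes considered here are the nuclear ones. Many have a paralogue whose symbol carries the suffix L, for "like". In Drosophila such duplicates of mitochondrial genes are often expressed in the testis. Charlatan is a zinc finger transcription factor known for its part in forming sensory organs.

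A peak is a stretch of enriched DNA with a summit, its point of highest enrichment. Of the 30000 summits called on the pooled replicates, the 4537 with the highest signal had passed an irreproducible discovery rate (IDR) threshold, which keeps peaks that rank alike in replicates. These are called thresholded, and the whole pooled list is called relaxed. A gene was counted as bound when a thresholded summit lay within 1000 bp of one of its transcription start sites (TSSs). Rank 1 is the highest signal in a list, and signal values are the authors' own, used within a list. Read numbers are not part of these lists, and the depth behind a peak is therefore unknown. No summit in the deposited dm6 lists lay on the mitochondrial genome. All of them lay on 2L, 2R, 3L, 3R, 4 or X, so whether other sequences were searched is not known.

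Respiratory chain genes were bound about as often as other genes. A thresholded summit lay near 18 of the 88 members (20.5%), against 24.2% of all protein-coding genes, so the count is near the background and shows nothing particular to the members. Within 500 bp of a TSS 17 members were bound against 21.3% of all genes, and within 250 bp also 17 against 17.4%. Among the 1000 strongest peaks 5 members remained against 7.17%. With a summit credited only to the gene of the nearest TSS, 14 members were bound against 17.4%. With canonical TSSs alone 18 were bound against 22.1%, and with summits anywhere in the gene also counted, 18 against 26.9%. Other gene groups of the same annotation, taken by symbol, had larger or similar shares: 71.8% of 85 cytoplasmic ribosomal protein genes, 45.2% of 73 mitochondrial ribosomal protein genes and 25.0% of 48 proteasome genes. These differences were not tested.

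Weak summits were common at the members. A relaxed summit lay near 63 of the 88 (71.6%), against 60.4% of all genes. Of members with a relaxed summit 28.6% had a thresholded one, against 40.0% of all such genes. The 45 members with a relaxed summit alone had best ranks from 4647 to 27603 with a median of 9471, and 22 of them lay beyond rank 10000. In 12 of the 45 the summit was within 50 bp of a TSS. The remaining 25 members had no summit in the relaxed list within 1000 bp, which does not show that they were unbound.

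**Figure D1:**
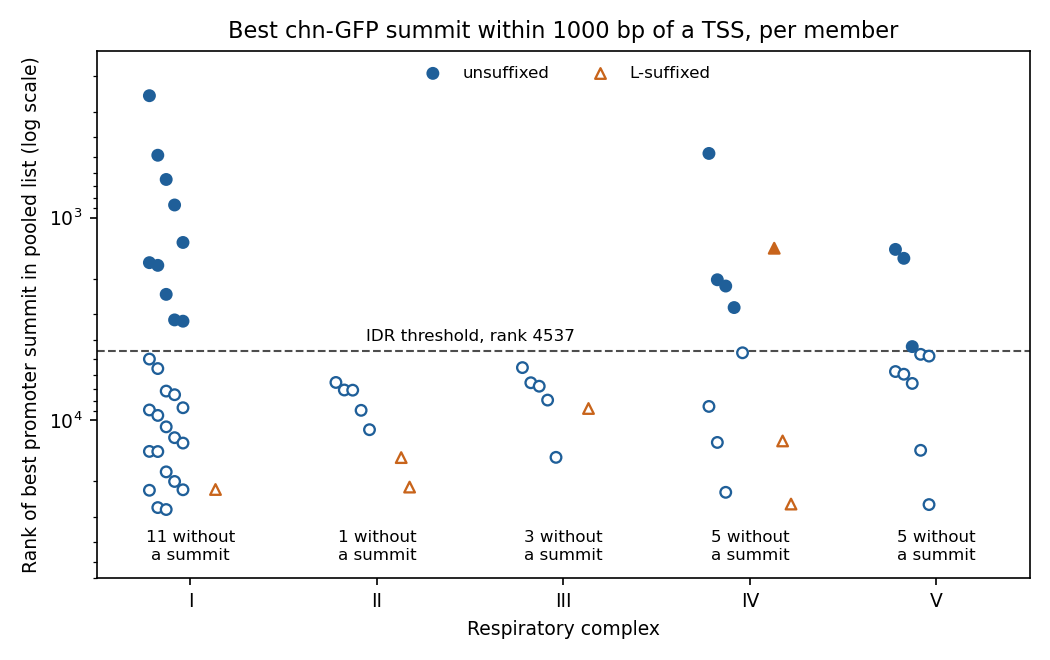
Rank of the strongest pooled summit within 1000 bp of a TSS for each member, by complex, on a logarithmic axis with the highest signal at the top. Filled symbols are thresholded summits, open symbols are relaxed summits, circles are unsuffixed members and triangles are L-suffixed members, with the number of members that have no summit written below. No member of complex II or III lies above the threshold, while complexes I, IV and V each have members on both sides of it.

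Thresholded summits lay at members of complexes I, IV and V. Complex I had 10 of 40 members bound, complex IV 5 of 16 and complex V 3 of 15. Complex II had 0 of 8, the assembly factor gene Sdhaf3 among them, and complex III 0 of 9. The small complexes have few members. No count was tested against the 24.2% of all genes, and no test was made between complexes. By chromosome arm, 5 of 16 members were bound on 2L, 1 of 17 on 2R, 4 of 20 on 3L, 4 of 20 on 3R, 4 of 13 on X and 0 of 2 on chromosome 4. The bound share of all genes on each arm was not computed, so no arm can be called high or low.

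In complex I the strongest peak lay at ND-MWFE, which encodes a small accessory subunit of the membrane arm. Its signal of 340 ranked 250 of the 4537, with rank 352 in replicate 1 and 196 in replicate 2. The peak spans 13158360 to 13158523 on 2R (dm6), and its summit lay in an intron, 215 bp upstream of the ND-MWFE TSS but 6 bp from a TSS of TppII, the gene of tripeptidyl peptidase II. ND-ASHI, another accessory subunit gene, followed with a signal of 248 and rank 492 (X, 6679261 to 6679452), and ranked 521 and 517 in the replicates. ND-24, which encodes an iron-sulphur subunit of the NADH-oxidising module, had a signal of 220.5 and rank 648, with ranks 714 and 623. Its peak spans X from 17631972 to 17632371, and the summit lay in a 5' UTR, 83 bp downstream of a TSS. These 3 peaks ranked within the strongest 1000 of the pooled list and of both replicate lists.

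The other 7 bound genes of complex I ranked from 866 to 3245. ND-42, an accessory subunit gene, had 2 overlapping peaks, with signals of 192 and 130 and ranks 866 and 1833. The stronger was nearer to Cchl, the gene of cytochrome c heme lyase, at 70 bp, than to ND-42, at 299 bp. ND-51, which encodes the flavoprotein that takes electrons from NADH, had a signal of 137 and rank 1668, with ranks 1998 and 1323 in the replicates. Accessory subunit genes made up the rest: ND-SGDH at rank 1326, ND-B17 at 1720, ND-15 at 2392, ND-B22 at 3198 and ND-MNLL at 3245.

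In complex IV the strongest peak lay at COX5A (3R, 11819471 to 11819633, signal 250.3, rank 482), the gene of a nuclear subunit on the matrix side of the enzyme. It ranked 374 in replicate 1 and 760 in replicate 2, and its summit lay 65 bp upstream of a COX5A TSS. COX7AL2 came next (2L, 2197074 to 2197473, signal 151.5, rank 1416), with replicate ranks of 2298 and 1338. COX8 (3L, 21539276 to 21539675, signal 120.9) ranked 2026, with 1825 and 2526 in the replicates and a summit 29 bp upstream of the COX8 TSS. COX7B at rank 2176 and COX6B at rank 2779 completed the bound genes of complex IV. Both had the better rank in replicate 2: 1117 against 3820 for COX7B, and 2027 against 4284 for COX6B.

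In complex V 3 genes of ATP synthase were bound. ATPsynC, the gene of the subunit that forms the rotor ring, had the strongest peak (3R, 31219496 to 31219895, signal 150.6, rank 1435, replicate ranks 1836 and 1192). Its summit lay 66 bp upstream of a TSS with no other protein-coding TSS within 1000 bp. ATPsynE had 2 summits. The stronger (3R, 14327687 to 14328086, rank 1588, replicate ranks 1319 and 2059) lay past the end of the gene and 164 bp from a TSS of spn-B, a DNA repair gene of the germline. The weaker, at rank 1662, lay 41 bp from a TSS of ATPsynE, in a 5' UTR. ATPsynB, the gene of the stalk subunit b, had the weakest thresholded peak of all members (3L, 9729791 to 9730190, signal 74.1, rank 4331), 8 bp from its TSS. ATPsynB ranked 6004 in replicate 1 and 3679 in replicate 2. ATPsynbeta, the gene of the catalytic subunit, had a relaxed summit at rank 4826, 431 bp from its TSS but 78 bp from a TSS of CG11076.

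Complexes II and III had only relaxed summits. SdhC and SdhD, which encode the membrane anchors of succinate dehydrogenase, had summits at ranks 7108 and 7093, 38 and 23 bp from a TSS. The replicate ranks were 7271 and 8899 for SdhC but 6365 and 23717 for SdhD, so the SdhD summit was far weaker in replicate 2. SdhA, the flavoprotein gene, had one at rank 6511, 810 bp from its TSS but 9 bp from a TSS of cer. SdhB, the iron-sulphur protein gene, had one at rank 11139, 27 bp from its TSS. Sdhaf3, an assembly factor gene that the symbol rule takes in, stood at rank 8938. In complex III the best was UQCR-14, a small subunit gene, at rank 5499 and 8 bp from its TSS, with ranks 9078 and 4996 in the replicates. UQCR-6.4 (signal 55.1, rank 6532, 18 bp from its TSS) ranked 10450 and 5153 in the replicates, and UQCR-Q (signal 53.5, rank 6795, 95 bp) ranked 5807 and 10701. Of the core protein genes, UQCR-C2 stood at rank 7955 and UQCR-C1 at 15254.

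Of the bound members only ATPsynB (signal 74.1, rank 4331) lay close to the threshold. The next weakest, ND-MNLL (signal 90.3, rank 3245) and ND-B22 (signal 91.0, rank 3198), stood well inside it. Just outside were COX7C (signal 70.4, rank 4647), ATPsynF (signal 69.4, rank 4730) and ATPsynbeta (signal 68.5, rank 4826). Each of these summits lay nearer to a TSS of another gene. The COX7C summit was at 332 bp with oys at 66 bp, and the ATPsynF summit at 130 bp with CG3548 at 4 bp. That of ATPsynbeta was at 431 bp with CG11076 at 78 bp. ATPsynF ranked 3353 in replicate 1 and 9455 in replicate 2. COX7C ranked 4816 and 4733, and ATPsynbeta 5307 and 5914. The −log10 q was at its maximum of 3.89 in 17 of the 18 bound members and 3.24 in ATPsynB, and no unbound member was above 2.96.

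L-suffixed members were rarely near a peak. A member was put in this class when its symbol without the final L, or L and a digit, is also a member, which gave 20 L-suffixed and 68 unsuffixed genes. A thresholded summit lay near 1 of the 20 L-suffixed genes and 17 of the 68 unsuffixed ones (25.0%), beside 24.2% of all genes. A relaxed summit lay near 7 L-suffixed genes (35.0%) and 56 unsuffixed ones (82.4%), beside 60.4%. Classed by the final L alone, which moves COX6AL, COX6AL2, COX6CL and ATPsynepsilonL, 1 of 24 and 17 of 64 were bound. The number of annotated TSSs, each of which adds promoter to the search, also differed between the classes. L-suffixed genes had 1 annotated TSS in 17 of 20 cases, against 36 of 68 unsuffixed genes and 10246 of all 13945 genes. Among genes with 1 TSS, 0 of 17 L-suffixed and 6 of 36 unsuffixed members were bound, beside 18.8% of all such genes. Relaxed summits lay near 4 of those 17 and 28 of those 36, beside 53.1%. The difference between the classes, and the part of the TSS number in it, was not tested.

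The exception, COX7AL2, has 3 annotated TSSs. Its summit lay in an intron 638 bp downstream of the nearest one and no other protein-coding TSS lay within 1000 bp. Its unsuffixed counterpart COX7A, and the other duplicate COX7AL, had no relaxed summit. Over the 20 pairs of an L-suffixed gene with its counterpart, 10 had a relaxed summit at the unsuffixed gene only, 1 at the suffixed gene only, 6 at both and 3 at neither. Where both had one, the unsuffixed gene had the better rank in 5 of 6. In the remaining pair ND-20L stood at rank 21952 and ND-20 at 27603. Of the 18 unsuffixed counterparts only ND-24 and ND-51 were bound, and their duplicates ND-24L, ND-51L1 and ND-51L2 had no relaxed summit. The bound share of the counterparts was thus 11.1%, below the 25.0% of all unsuffixed genes and nearer to the 1 of 20 L-suffixed ones. A relaxed summit lay near 15 of the 18 counterparts (83.3%). How reads that map to near-identical copies were treated is not stated in the labels, so the level at close duplicates is uncertain.

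Most bound members shared their peak with a neighbouring gene. At 13 of the 18 (72.2%) a TSS of another protein-coding gene lay within 1000 bp of the summit, against 62.6% of all bound genes. At 12 of these the neighbour was a head-to-head gene, whose TSS lies upstream on the opposite strand and points away. In 9 of the 12 the summit lay between the nearest TSSs of the pair. The member's own TSS was the nearest one at 12 of the 18 bound genes. The other 6 were ND-MWFE, ND-42, ND-MNLL, COX6B, COX7B and ATPsynE, and a peak at a shared promoter cannot be assigned to 1 of the genes.

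**Figure D2:**
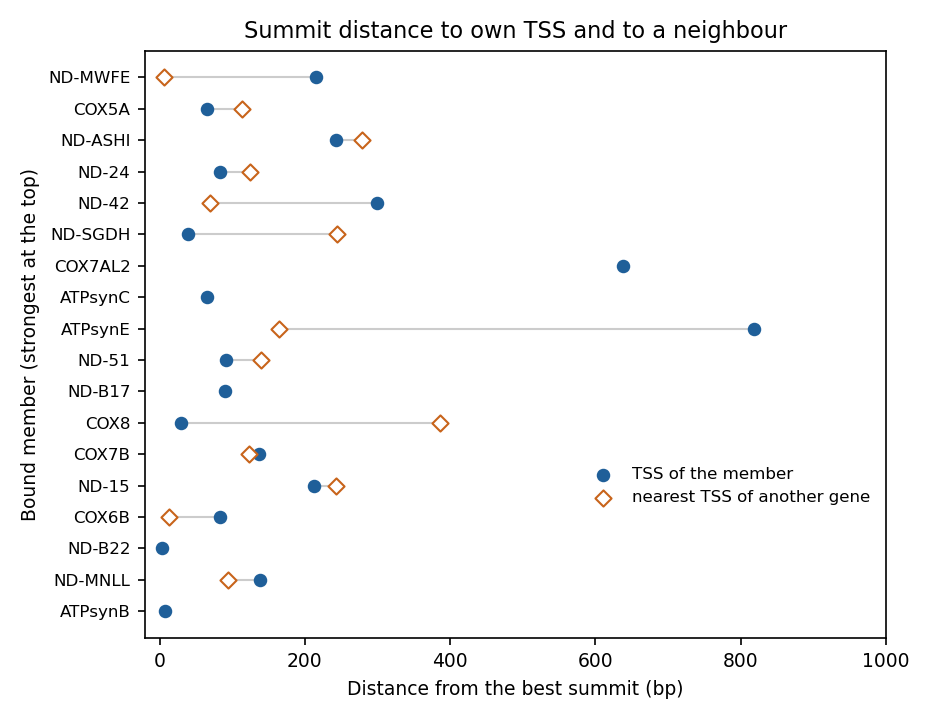
Distance in bp from the strongest thresholded summit of each of the 18 bound members to its own nearest TSS (filled circles) and to the nearest TSS of another protein-coding gene within 1000 bp (open diamonds), with the strongest peak at the top. The 5 members without a diamond have no such neighbour, and COX7AL2 and ATPsynE are the ones whose own TSS lies over 500 bp from the summit.

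Summits at bound members lay close to their start sites. The median distance to the member's nearest TSS was 91 bp, against 155.5 bp for all bound genes, and 10 of 18 lay within 100 bp, against 35.7% of all bound genes. The summit was upstream of that TSS in 14 members and downstream in ND-24, ND-15, ATPsynE and COX7AL2. By annotation 10 summits were intergenic, 4 lay in a 5' UTR and 4 in an intron. The median rank of the bound members was 1628, against 1888 for all bound genes. These medians were not tested.

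Some of the neighbours also serve mitochondria. ND-ASHI shares its promoter with Fum1, which encodes the fumarase of the tricarboxylic acid (TCA) cycle, with the summit 243 bp from the ND-ASHI TSS and 279 bp from the Fum1 TSS. ND-42 lies beside Cchl, which attaches heme to cytochrome c. Other neighbours have roles elsewhere in the cell. COX5A lies beside glo, the gene of an RNA-binding protein of the oocyte, at 65 and 114 bp. ND-24 lies beside corolla, a gene of the meiotic synaptonemal complex, at 83 and 125 bp. COX7B lies beside Sec3, an exocyst gene, at 137 and 123 bp. COX8 lies beside VhaM9.7-b, a proton pump subunit gene, at 29 and 386 bp. ND-MNLL lies beside p115, the gene of a Golgi tether, at 139 and 94 bp. The COX6B summit had 3 neighbours, CG33932, Rpp20 and CG18809. ND-SGDH lies beside RhoGAP68F, ND-15 beside Pus10 and CG3436, and ND-51 beside CG13994. ATPsynB, ATPsynC, ND-B17, ND-B22 and COX7AL2 had no neighbour.

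The bound share was larger among genes with a head-to-head neighbour, over the members together as over all genes. Of the 44 members with such a neighbour within 1000 bp, 13 were bound (29.5%), against 42.0% of all genes with one. Of the 44 without, 5 were bound (11.4%), against 14.0% of all genes without one. Complex V went the other way, with 1 of 10 bound among genes with such a neighbour and 2 of 5 among those without. The number of members with such a neighbour was 22 of 40 in complex I, 2 of 8 in II, 2 of 9 in III, 8 of 16 in IV and 10 of 15 in V. Among L-suffixed genes 3 of 20 had a head-to-head neighbour (15.0%), against 41 of 68 unsuffixed ones (60.3%). The share over all genes, 36.2%, lay between the classes. Without such a neighbour, 1 of 17 L-suffixed and 4 of 27 unsuffixed members were bound. The part of promoter arrangement in the differences between complexes and between classes was not tested.

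**Figure D3:**
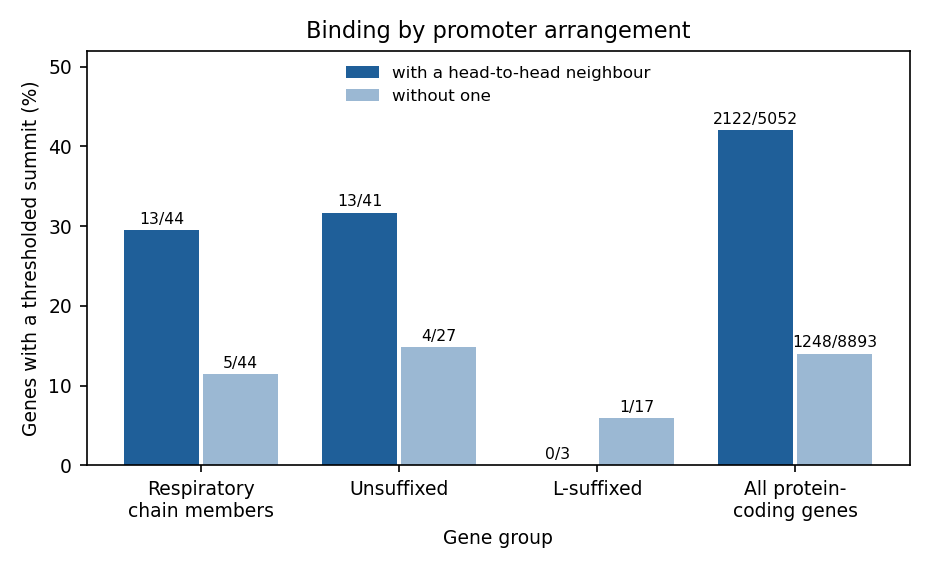
Percentage of genes with a thresholded summit within 1000 bp of a TSS, for genes with (dark bars) and without (light bars) a head-to-head neighbour within 1000 bp. Bound and total genes are written above each bar. The dark bar is the higher one for the members, at 29.5% against 11.4%, and for all genes, at 42.0% against 14.0%, while the L-suffixed genes have 3 members with a neighbour and none of these is bound.

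The DNA under the summits was read from the Release 6 genome (dm6). Each stretch is the longest run within 100 bp of the summit that lies outside annotated UTRs, printed 5′ to 3′ on the strand of the member. Capitals mark matches to the motifs searched: TATCGATA (the DNA replication-related element, DRE), the string GAGAG (called GAGA here), the E-box with letters CAGCTG, the 7-mer ACAGTGG, the piece TGCGCA of the NRF-1 palindrome, and the ETS site CTTCCGG, on both strands. These strings can overlap one another, and a window was counted once per motif. Shown are shared promoters, with the neighbour named, of COX5A (chr3R:11819434-11819547, plus strand, beside glo), ND-ASHI (chrX:6679261-6679461, minus strand, beside Fum1), ND-51 (chr2L:6062758-6062949, minus strand, beside CG13994) and ND-MNLL (chrX:7893837-7894030, minus strand, beside p115).
COX5A: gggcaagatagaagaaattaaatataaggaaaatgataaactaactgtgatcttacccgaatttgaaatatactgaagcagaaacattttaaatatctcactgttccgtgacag
ND-ASHI: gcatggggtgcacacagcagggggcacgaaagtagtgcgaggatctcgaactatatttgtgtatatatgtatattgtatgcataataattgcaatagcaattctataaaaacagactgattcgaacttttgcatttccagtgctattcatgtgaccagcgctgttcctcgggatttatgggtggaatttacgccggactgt
ND-51: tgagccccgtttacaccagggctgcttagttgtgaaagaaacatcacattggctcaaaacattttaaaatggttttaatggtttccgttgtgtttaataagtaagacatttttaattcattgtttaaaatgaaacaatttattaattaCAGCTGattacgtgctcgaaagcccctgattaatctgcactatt
ND-MNLL: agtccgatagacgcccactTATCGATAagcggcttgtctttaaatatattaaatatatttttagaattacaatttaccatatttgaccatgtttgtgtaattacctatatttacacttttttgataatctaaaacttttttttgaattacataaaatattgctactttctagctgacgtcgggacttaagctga

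Promoters with no neighbour and the L-suffixed exception are given for comparison: ATPsynC (chr3R:31219631-31219796, minus strand), ND-B17 (chr2L:15751079-15751268, minus strand), ATPsynB (chr3L:9729891-9729998, plus strand) and the intronic site of COX7AL2 (chr2L:2197174-2197308, minus strand).
ATPsynC: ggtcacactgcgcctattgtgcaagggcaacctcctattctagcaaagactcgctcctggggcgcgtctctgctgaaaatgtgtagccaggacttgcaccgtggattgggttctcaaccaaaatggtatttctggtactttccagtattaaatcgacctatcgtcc
ND-B17: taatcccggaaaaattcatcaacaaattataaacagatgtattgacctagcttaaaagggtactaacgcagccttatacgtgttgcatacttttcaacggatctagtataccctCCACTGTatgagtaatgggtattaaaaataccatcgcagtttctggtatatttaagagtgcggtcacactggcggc
ATPsynB: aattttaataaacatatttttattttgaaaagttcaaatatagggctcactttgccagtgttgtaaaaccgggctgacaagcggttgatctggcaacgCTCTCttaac
COX7AL2: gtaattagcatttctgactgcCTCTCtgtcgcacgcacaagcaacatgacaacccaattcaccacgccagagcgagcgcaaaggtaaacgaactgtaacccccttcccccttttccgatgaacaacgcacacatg

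No motif was held by most of the bound members. In windows reaching 100 bp to either side of the 18 best summits, the E-box was found in 4 (22.2%), against 11.3% of all 4537 thresholded summits. These were ND-42, ND-51, ND-B17 and ND-B22, all in complex I. GAGA was found in 4 (22.2%) against 27.0%, at ATPsynB, ATPsynE, COX6B and COX7AL2. DRE was found in 1 (5.56%) against 4.78%, at ND-MNLL, and the 7-mer in 1 (5.56%) against 9.30%, at ND-B17. The NRF-1 piece was found in 0 of the 18, against 227 of the 4537, and the ETS site in 0, against 0.661%. The 18 summits all lay within 1000 bp of a TSS, while the 4537 were not chosen by distance to a TSS. The shares at summits are therefore not compared like for like. A match is a description of the letters and not evidence of a factor.

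In promoter windows from 250 bp before to 50 bp after the canonical TSS, the members differed little from all genes in most motifs, the E-box aside. DRE was in 9.09% of the 88 members and 8.94% of all promoters, GAGA in 23.9% and 30.2%, the E-box in 26.1% and 17.9%, and the 7-mer in 3.41% and 3.58%. The NRF-1 piece was in 4.55% of the members and 7.02% of all promoters, and the ETS site in 0 members and 1.08%. Split by binding, the E-box was in 4 of 18 bound members (22.2%) and 19 of 70 unbound ones (27.1%), beside 23.1% of all bound genes. It was thus no more common at the promoters of bound members than at those of unbound members. Between the classes, DRE was in 8 of 68 unsuffixed and 0 of 20 L-suffixed promoters, the E-box in 21 and 2, and GAGA in 12 and 9. Median GC content was 34.7% for the members and 38.0% for all promoters. None of these shares was tested.

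Most bound members ranked high in both replicates. Of the 18 bound members, 16 had their best summit among the 4537 strongest of both replicates within 100 bp (88.9%). Of all thresholded summits 72.4% did. The members' share takes the strongest summit of each gene, and the other takes every thresholded summit. These shares, and the rank ratios below, are therefore not compared like for like. ATPsynB was outside in replicate 1, at rank 6004. The best ND-SGDH summit had no replicate 1 summit within 100 bp, and the nearest, 125 bp away, ranked 1160. ND-SGDH had 3 thresholded summits, 2 of them in overlapping peaks. For the 17 members matched in both lists the larger rank was a median of 1.54 times the smaller, and 1.41 times over the 4317 thresholded summits matched in both. The largest ratio, 3.42, was that of COX7B. The better rank was in replicate 2 for 12 of the 17 and in replicate 1 for 5. The thresholded set was made from these replicates, so this does not stand as independent support.

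**Figure D4:**
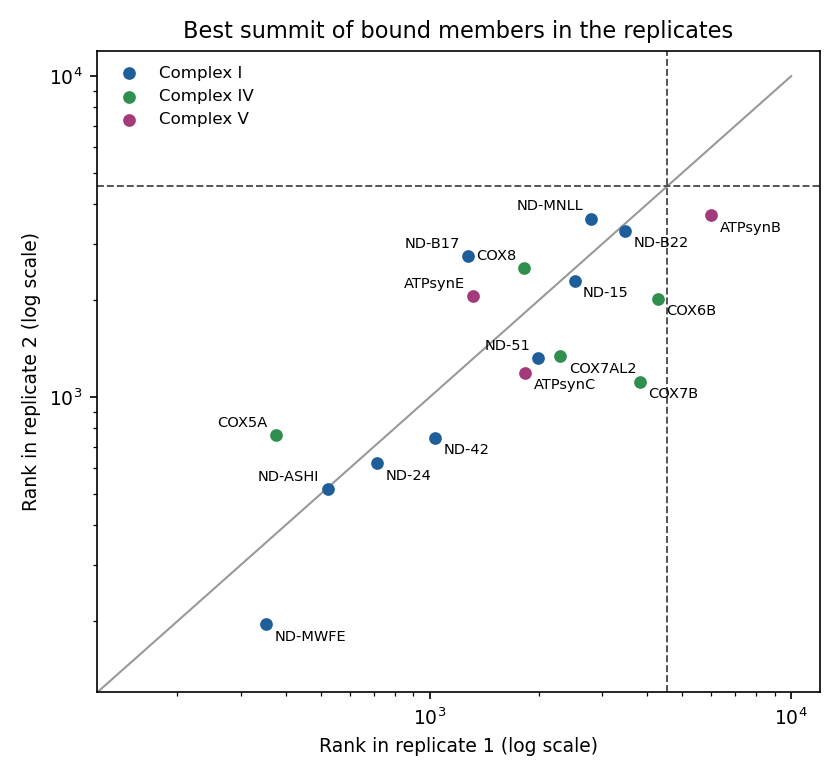
Rank of the best summit of the 17 bound members matched in both replicate lists, replicate 1 on the horizontal and replicate 2 on the vertical axis, both logarithmic, with the line of equal rank and dashed lines at rank 4537. ND-MWFE, ND-ASHI, COX5A and ND-24 lie nearest the strong end in both replicates, and ATPsynB is the one point beyond the line in replicate 1.

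Each replicate taken alone gave nearly the same members. Among the 4537 strongest summits of replicate 1 were summits near 18 members, and of replicate 2 near 20, each against 24.1% of all genes. In both lists 17 members were found. Replicate 1 added ATPsynF, and replicate 2 added ND-30 and ND-B18, which had pooled ranks of 9471 and 4991. No member of complex II or III was among them in either replicate.

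Genes around the respiratory chain that the symbol rule leaves out were also examined, in lists written by function. Of 9 other subunits and carriers 6 were bound, beside 24.2% of all genes. They were blw, the ATP synthase alpha subunit gene (rank 241), Cyt-c-d and Cyt-c-p, the cytochrome c genes (ranks 205 and 816), levy and cype, subunit genes of complex IV (ranks 968 and 4290), and ox of complex III (rank 3218). RFeSP and Cyt-c1, of complex III, and sun, of complex V, were not bound. The Cyt-c-p summit lay 984 bp from its TSS. Had these genes been members, complexes III, IV and V would each have gained a bound gene, so the counts by complex depend on how genes are named.

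The TCA cycle had 9 of 11 genes bound, against 24.2% of all genes: mAcon1, Idh3g, Fum1, Idh3b, Ogdh, kdn, Scsalpha1, Idh3a and Mdh2, with ranks from 492 to 4150. Their number includes Fum1, through the peak it shares with ND-ASHI. The count stayed 9 within 500 bp of a TSS, against 21.3% of all genes, and was 7 within 250 bp, against 17.4%. Among the 4537 strongest summits of a single replicate it was 8 in replicate 1 and 7 in replicate 2, each against 24.1%. The kdn summit had no replicate 1 summit within 100 bp. The list leaves out succinate dehydrogenase (complex II), which is also an enzyme of the TCA cycle. Its genes SdhA, SdhB, SdhC and SdhD were not bound, so the share depends on how the list was written. Assembly factors had 4 of 10 bound, with CIA30, an assembly factor of complex I, strongest at rank 140, followed by Cox17 at 865, Coa8 at 2136 and Coa7 at 3749. Genes for the upkeep and expression of mitochondrial DNA had 3 of 12 bound, mtSSB (rank 818), PolrMT (rank 1164) and PolG2 (rank 1900). Of 5 nuclear regulators, ERR (rank 585) and Dref (rank 1618) were bound, and among the strongest summits without replicate 2 the count was 4 of 5. The ERR summit lay 228 bp from ERR but 42 bp from a TSS of Atg18a. That of Dref lay 1 bp from Dref and 85 bp from a TSS of RpL13. Summits of other listed genes were also shared, such as that of Coa8, at 553 bp with CG14818 at 45 bp. Of 5 import genes 0 were bound. The lists are short and were not tested.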

How the data were processed

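ChIP-seq peak lists of 2 biological replicates of chn-GFP embryos, from chromatin sonicated to 200 to 800 bp per the labels, were used. Per the deposited inventory files, the authors called peaks on each replicate and on their pool against a control, and made the IDR-thresholded set from these lists. No label or header names an aligner, a caller or a version. Each deposited list gives a signal value per peak, with no scaling to depth recorded in the labels. The pooled and thresholded lists also give the −log10 of a q-value per peak, which in the deposited pooled list reaches a maximum of 3.89 at 3851 peaks. Peaks were therefore ranked by signal. The control and the dm3 lists were not used here.

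Positions are on dm6, and peak ends lay within the chromosome lengths of the Release 6 genome. Genes and TSSs of protein-coding transcripts were taken from Ensembl release 115 (BDGP6.54). Summits are the start plus the offset in the list, and summits of different lists were matched within 100 bp. Members and lists were chosen with earlier results of these data known. The genes named are all bound members, the 3 strongest of each complex in full, the 3 weakest bound, the 3 strongest unbound, L-suffixed genes that were bound with their counterparts, and neighbours at shared promoters. Other genes of complexes II and III and of the paralogue pairs, and ND-30 and ND-B18, were named after their values were seen. Names in the lists that the annotation does not hold were left out. With 1 group there was no contrast, so results are counts and ranks with no test. The look-ups were tested on simulated data. Python 3.11.15, numpy 2.4.6, pandas 2.3.3 and matplotlib 3.10.9 were used.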

Additional observations from a re-analysis of the deposited data

How the results depend on the processing

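No paired analysis was possible because the labels give 1 group. Among the 1000 strongest peaks, fewer peaks were counted: 5 members were bound, 4 in complex I, 1 in complex IV and 0 in complex V, all 5 unsuffixed and 0 L-suffixed, with a median rank of 492 in place of 1628 and all 5 with another gene's TSS near the summit. The lists then held 2 assembly, 1 mitochondrial DNA, 1 regulator and 3 TCA cycle genes. Within 500 and 250 bp of a TSS 0 L-suffixed members were bound, and within 250 bp 3 other subunits. With the nearest TSS alone 3 members of complex IV and 3 other subunits were bound. Leaving out a replicate gave 18 to 20 members bound, and for the nuclear regulators 2 to 4. The other counts, complexes II and III at 0 among them, stayed within 1.5 times the reported ones. With the depth unknown, absence from a list sets no limit on weak binding. Genes that share a peak count separately, and no count measures the spread between embryos.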
